A study of Homo sapiens with 54 samples.

Results

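The comparison described here sets human H4 cells transfected with a miR-320 mimic against H4 cells transfected with a negative control RNA, both read in the total lysate. It uses 6 of the 54 arrays of the series, 3 per group, chosen by their labels. H4 is a human brain tumour line that the labels call glioneuronal, and the cells were harvested 48 h after transfection. The series as a whole was built to compare members of the miR-15/107 group of microRNAs, and within it the labels describe miR-320 as a control miRNA. The groups used below are the miR-320 lysate, the lysates of 7 other transfections (miR-103, miR-107, miR-16, miR-195, miR-15b*, which is labelled an anti-sense control miRNA, and the pair miR-107-mut1 / miR-107-mut2, non-natural variants of miR-107), the miR-320 and negative control Argonaute immunoprecipitates (IP), and the negative control lysate. Each has 3 arrays, labelled as biological replicates. All groups received a transfected RNA, so no value below refers to untreated cells, and all came from a single cell line. The labels do not say which member of the miR-320 family was transfected.

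A microRNA is a short RNA that guides Argonaute proteins to messenger RNAs, usually by pairing its seed, the bases near its 5′ end, with sites in the target. Bound messages are translated less and are often degraded faster, so a direct target may be lower in total RNA and enriched in RNA pulled down with Argonaute. Many other messages change as a consequence of the direct effects. The miR-320 family has been reported to act on messages of adhesion, mitochondrial and growth-control proteins, and some of its precursors are made without the Drosha step that most microRNA precursors need.

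Mature sequences of miR-320b, miR-320c, miR-320d and miR-320e from RefSeq (GRCh38.p14) are shown first because they define the pairing that sets miR-320 apart from the other transfected molecules; miR-320a, a further member of the family, is not shown. Capitals mark the seed, bases 2 to 8 counted from the 5′ end.
miR-320b: aAAAGCUGgguugagagggcaa
miR-320c: aAAAGCUGgguugagagggu
miR-320d: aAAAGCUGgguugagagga
miR-320e: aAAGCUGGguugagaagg

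The first 3 shared the seed AAAGCUG, and miR-320e carried AAGCUGG. They differ from each other mainly in length and at the 3′ end. The seeds of the natural molecules in the compared transfections are shown for contrast.
miR-103a-3p: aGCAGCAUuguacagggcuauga
miR-107: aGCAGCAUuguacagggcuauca
miR-16-5p: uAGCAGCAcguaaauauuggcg
miR-195-5p: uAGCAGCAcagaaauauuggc
miR-15b-3p: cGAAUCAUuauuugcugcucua

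miR-103a-3p and miR-107 shared GCAGCAU, miR-16-5p and miR-195-5p shared AGCAGCA, and miR-15b-3p, which stands for miR-15b*, carried GAAUCAU. None of these 3 seeds was found in the miR-320 sequences shown. The array's probe for the MIR320A locus gave log2 values of 8.83, 8.51 and 8.87 in the miR-320 lysates, against 8.55, 8.55 and 8.48 in control lysates. These groups overlapped in part and the difference of 0.22 did not pass the test (limma, adjusted p = 0.88), so the array gives no check of how much mimic the cells took up.

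Values are log2 intensities normalised by the authors, and 11050 genes were tested with limma at an adjusted p of 0.05. The average log2 value of the arrays lay between 7.11 and 7.14 for miR-320 and between 7.13 and 7.14 for the control. Correlations within each group were high, at mean values of 0.981 to 0.988 for miR-320 and 0.984 to 0.991 for the control. The glial and progenitor genes VIM and SOX2 averaged 12.43 and 10.63 in the miR-320 lysates, against 12.54 and 9.87 in control lysates. The neuronal genes UCHL1 and MAP2 averaged 12.92 and 8.13 in the miR-320 lysates, against 12.95 and 8.14 in control lysates. The astrocyte gene GFAP was low, at 6.50 in the miR-320 lysates and 6.51 in control lysates, and the leukocyte gene PTPRC was at 3.69 and the epithelial gene EPCAM at 4.46 in the miR-320 lysates, against 3.59 and 4.32 in control lysates. Of 20 neuronal, 22 glial and 21 haematopoietic, endothelial or epithelial markers on the array, 11, 14 and 6 were tested, and the rest were too dim. Over all 20 neuronal markers the miR-320 array means were 7.14 to 7.17, and over all 22 glial markers 7.50 to 7.65. None of the tested markers was called, although 1 neuronal and 2 glial genes were higher in the fit without 3 arrays described next. Because the RNA came from whole cultures, fewer cells with a message and less message per cell cannot be told apart. Among the 27 lysate arrays, 3 of other transfections stood apart from the rest (miR-103, miR-15b* and miR-16, replicate 2 each), with median correlations of 0.866 to 0.928 against 0.95 to 0.972 for the others. They entered the shared estimate of the spread, and counts without them are given where they differ by more than 1.5 times. The 27 IP arrays were not screened this way. Among them miR-15b* replicate 1 had a median correlation of 0.821, against 0.887 to 0.943 for the others. It entered the spread of the IP fits, and counts without it were not made.

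The genes called between the miR-320 and control lysates were near equal in number each way, and their count depended on the setting. Of 11050 genes, 161 were higher in the miR-320 lysate than in the control lysate and 166 were lower, 2.96% of those tested (1.46% higher and 1.5% lower). With the replicate number as a block the counts were 328 and 343. Without the 3 arrays that stood apart they were 489 and 507. Leaving out miR-320 replicate 1, 2 or 3 left 185, 217 or 202 calls, and leaving out control replicate 1, 2 or 3 left 256, 139 or 178. The arrays of the 2 groups did not overlap for 326 of the 327 called genes, against 25.2% of all genes tested. The called falls had a median of -0.62 on the log2 scale and the called rises a median of 0.69, with 19 falls and 18 rises beyond 1 log2 unit.

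CBLN2, C3 and CDH10 had the largest falls among called genes whose groups did not overlap. CBLN2, a secreted cerebellin that organises synapses, had log2 values of 7.75, 7.51 and 7.04 in miR-320 lysates, against 9.61, 10.84 and 9.79 in control lysates, a change of -2.65 ± 0.23 (SE, n = 3 each, adjusted p = 1.6e-06). CDH10, a type II cadherin of neurons, had 8.31, 8.44 and 8.31 in miR-320 lysates, against 9.92, 10.61 and 10.59 in control lysates, a change of -2.02 ± 0.32 (adjusted p = 0.00068). Both genes were separated by more than the whole spread of either group. The SE of a lysate change, here and below, rests on the spread within all 9 lysate groups, not on these 6 arrays alone. C3, the central component of complement, had 8.91, 8.74 and 8.61 in miR-320 lysates, against 11.02, 10.75 and 10.54 in control lysates, 4.06-fold lower (adjusted p = 0.00088). SFRP4, a secreted antagonist of Wnt ligands, was lower by 3.89-fold but scattered in the miR-320 group, at 6.95, 5.57 and 6.70, against 8.42, 8.11 and 8.56 in control lysates (adjusted p = 0.028).

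The protocadherin PCDH10 had 9.13, 9.89 and 9.76 in miR-320 lysates, against 10.67, 11 and 11.16 in control lysates, 2.55-fold lower (adjusted p = 1.4e-05). FLRT3, a membrane protein of adhesion and axon guidance, had 9.47, 9.54 and 9.39 in miR-320 lysates, against 10.52, 10.92 and 10.90 in control lysates, 2.49-fold lower (adjusted p = 0.0002). LRRTM4, a synaptic adhesion protein, was 2.08-fold lower with an adjusted p of 0.029. CAPN6, a calpain family member without protease activity, was 2.45-fold lower (adjusted p = 0.00031). The calls of LRRTM4 and SFRP4 each ended when any of 5 of the 6 arrays was left out, with an adjusted p of 0.23 for LRRTM4 without control replicate 2 and of 0.17 for SFRP4 without miR-320 replicate 2.

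The other 7 of the 15 largest falls were between 2.08-fold and 2.73-fold lower. UROS, the uroporphyrinogen III synthase of haem synthesis, had 10.64, 10.12 and 10.44 in miR-320 lysates, against 11.55, 11.64 and 11.56 in control lysates, a change of -1.18 ± 0.11 (adjusted p = 1.8e-06). TSPAN31, a tetraspanin, had 10.20, 10.12 and 10.27 in miR-320 lysates, against 11.43, 11.34 and 11.26 in control lysates, a change of -1.15 ± 0.11 (adjusted p = 1.8e-06). TRIM14, an adaptor of antiviral signalling, had 9.65, 9.28 and 9.30 in miR-320 lysates, against 10.63, 10.50 and 10.45 in control lysates, 2.17-fold lower (adjusted p = 2.7e-05). NXT2, a partner of the mRNA export receptor, was 2.73-fold lower (adjusted p = 0.0022). GPER1, the G protein-coupled oestrogen receptor, was 2.34-fold lower (adjusted p = 0.0017), the membrane protein TMEM255A 2.14-fold lower (adjusted p = 0.0018), and DCAF11, a substrate receptor of a cullin ubiquitin ligase, 2.08-fold lower (adjusted p = 0.0017). The calls of these 7 genes held with each of the 6 arrays left out.

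**Figure D1:**
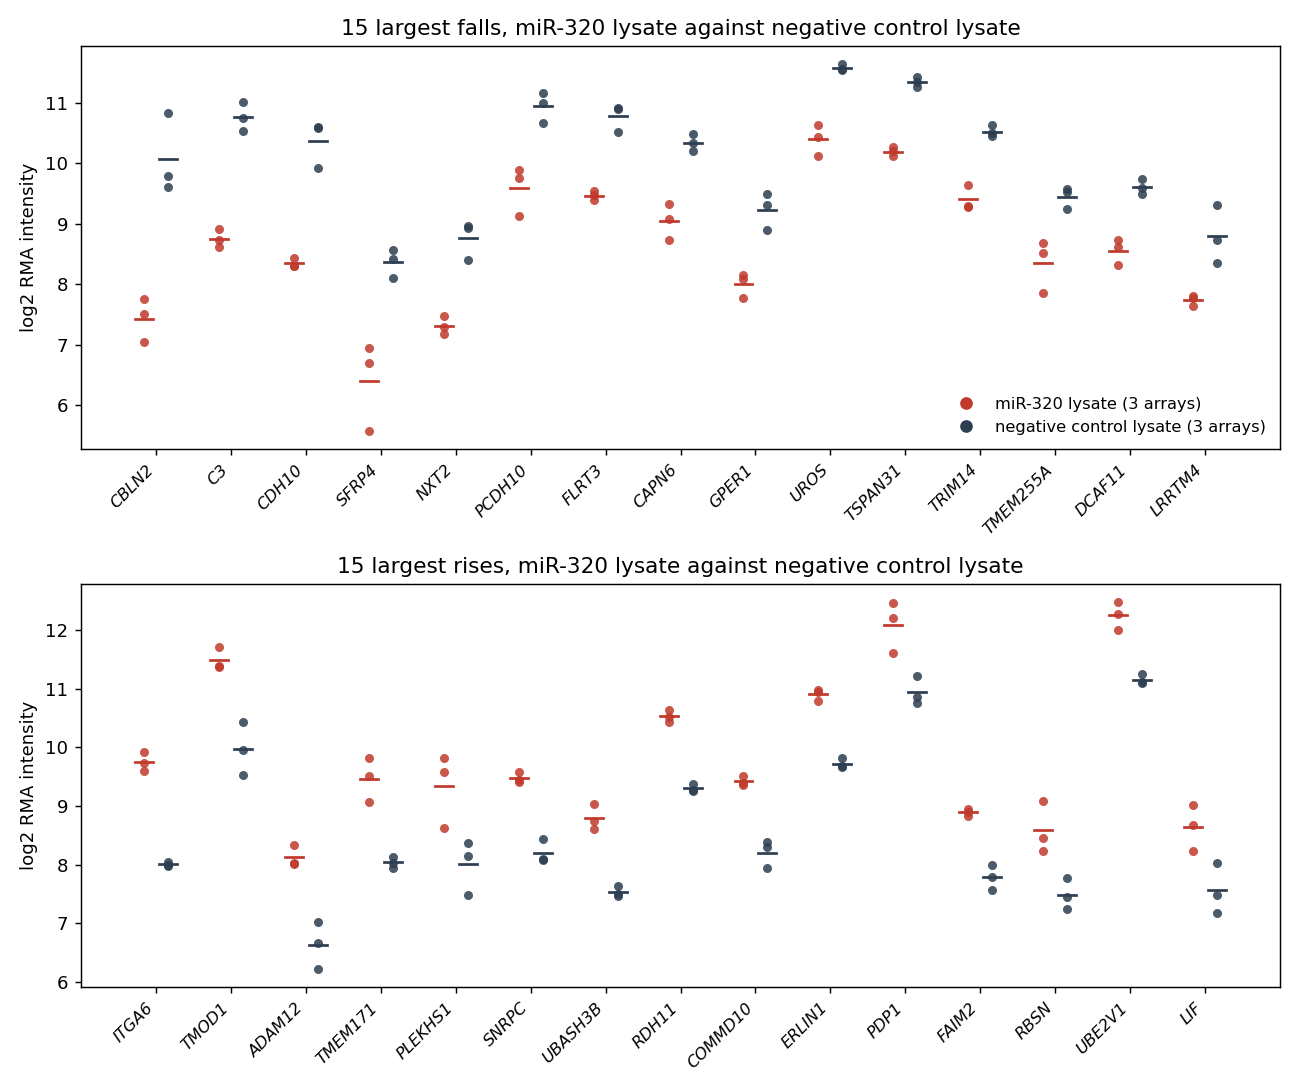
Log2 RMA intensity (vertical axis) in the 3 miR-320 lysates (red, left of each pair) and the 3 negative control lysates (dark, right) for the 15 largest falls (upper panel) and the 15 largest rises (lower panel). Points are arrays and bars are means; the miR-320 and control points of each gene do not overlap, with CBLN2 at 7.04 to 7.75 in miR-320 lysates against 9.61 to 10.84 in control lysates.

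Some of the messages that fell in the lysate were enriched in the Argonaute IP. The IP arrays hold the RNA recovered with an anti-Argonaute antibody from miR-320 and control transfections, and in them 234 genes were higher with miR-320 and 10 lower (2.12% and 0.0905% of those tested, 2.21% together, 373 in all with the replicate block and 148 without control IP replicate 2). Of the 166 genes lower in the lysate, 21 were higher in the IP, which is 12.7% of the falls and 8.97% of the genes raised in the IP. Of the 161 genes higher in the lysate, 4 were higher in the IP, which is 2.48% of the rises. The 234 genes raised in the IP had a median lysate change of -0.11, and 67.1% of them lay below 0 in the lysate, against 49% of all genes. Read from the lysate, the 166 falls had a median IP change of -0.04, with 74 above 0. The 161 rises had a median IP change of 0.22, with 119 above 0. By their median the falls were therefore not raised in the IP, although 12.7% of them were called higher there, against 2.12% of all genes tested. With the replicate block 38 genes were lower in the lysate and higher in the IP, and 47 without the 3 arrays that stood apart. The change itself differed between the fractions for 252 genes (2.28%), among them all 21. For these 21 a positive difference follows from how they were chosen. The 2 fractions were measured on different arrays, and same-numbered lysate and IP arrays may come from the same transfection.

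UROS stood at 10.44, 10.55 and 10.43 in the miR-320 IP, against 8.63, 7.88 and 8.56 in the control IP, 4.33-fold higher (adjusted p = 0.0013), beside its fall in the lysate. DYNLRB1, a light chain of cytoplasmic dynein, had lysate values of 9.15, 8.88 and 9.02 with miR-320, against 9.66, 9.58 and 9.59 in the control, 1.51-fold lower (adjusted p = 0.014). Its IP values were 9.55, 9.96 and 9.69 with miR-320, against 6.13, 6.07 and 6.99 in the control, 10.1-fold higher (adjusted p = 1.3e-05). DYNLRB1 had the largest IP rise of the 21 genes, and in the IP its 2 groups were far apart.

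TRAPPC1, a subunit of the TRAPP complex of vesicle tethering, had lysate values of 11.43, 11.56 and 11.51 with miR-320, against 12.24, 12.25 and 12.29 in the control, a change of -0.76 (adjusted p = 0.0021). Its IP values were 13.05, 12.97 and 12.84 with miR-320, against 11.07, 10.35 and 10.81 in the control, 4.64-fold higher (adjusted p = 1.8e-05). The membrane protein gene FAM234A had lysate values of 10.63, 10.56 and 10.62 with miR-320, against 11.59, 11.39 and 11.44 in the control, a change of -0.87 (adjusted p = 0.00074). In the IP FAM234A was 4.50-fold higher (adjusted p = 0.007). SLC48A1, a haem transporter, had lysate values of 10.08, 9.91 and 9.81 with miR-320, against 10.67, 10.57 and 10.34 in the control (a change of -0.59, adjusted p = 0.034), and was 8.64-fold higher in the IP (adjusted p = 0.0015).

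AGFG1, an endosomal trafficking factor first found as a cofactor of HIV Rev, was lower by 0.74 on the log2 scale in the lysate (adjusted p = 0.0023) and 5.86-fold higher in the IP (adjusted p = 3.7e-05). RBMS2, an RNA-binding protein, was lower by 0.77 (adjusted p = 0.00025) and 5.57-fold higher in the IP (adjusted p = 0.0012). CTDSP1, a phosphatase that dampens neuronal genes, was lower by 0.73 (adjusted p = 0.0041) and 5.66-fold higher in the IP (adjusted p = 1.1e-05). CEP85, a centrosomal protein, was lower by 0.78 (adjusted p = 0.0018) and 5.68-fold higher in the IP (adjusted p = 0.00098). The ciliary protein gene TMEM237, the Polycomb gene CBX6 and the 5-methylcytosine dioxygenase gene TET3 followed, with lysate changes of -0.93, -0.72 and -0.49 and IP changes of 1.86, 1.64 and 1.07.

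The other genes of the 21 were GPER1, DCAF11, LINC03129, LINC00999, PPIL1 (a spliceosomal prolyl isomerase), CHRAC1 (a histone-fold subunit of a chromatin remodeller), CTPS1 (the CTP synthase that supplies dividing cells), ULK1 (the kinase that starts autophagy) and RTL8B. Over the 21 genes the lysate changes ran between -1.23 and -0.38 and the IP changes between 1.02 and 3.34. Of these lysate calls, 12 of 21 held with each of the 6 arrays left out. Those of ULK1 and RTL8B ended whichever array was left out, with adjusted p of up to 0.15 and 0.17. Those of CBX6 (0.055 without control replicate 2), LINC00999 (0.058 without miR-320 replicate 2), DYNLRB1 (0.08 without miR-320 replicate 2), SLC48A1 (0.15 without miR-320 replicate 3), PPIL1 (0.14 without miR-320 replicate 3), CTPS1 (0.21 without miR-320 replicate 3) and CHRAC1 (0.1 without control replicate 2) ended without at least 1 array.

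Other strong falls in the lysate had no called rise in the IP. TSPAN31 and TRIM14 changed by 0.97 and 1.52 there without passing the test (adjusted p = 0.65 and 0.11), and NXT2 by 0.58 (adjusted p = 0.06). CBLN2 was lower in both fractions, by 0.98 on the log2 scale in the IP (adjusted p = 0.041). PTGS2, CHST1, BTG3 and PRDM1 were higher in both fractions, and NPTN and MRGBP were higher in the lysate by 0.69 and 0.56 and lower in the IP by 1.88 and 2.96. These 6 genes and CBLN2 are named because their counts are small and were chosen after their values were seen. The lysate calls of PTGS2 (0.23), CHST1 (0.18) and BTG3 (0.089) ended without control replicate 2 and that of PRDM1 (0.09) without miR-320 replicate 3, the adjusted p in parentheses. Those of PTGS2 and CHST1 each ended when any of 5 of the 6 arrays was left out.

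**Figure D2:**
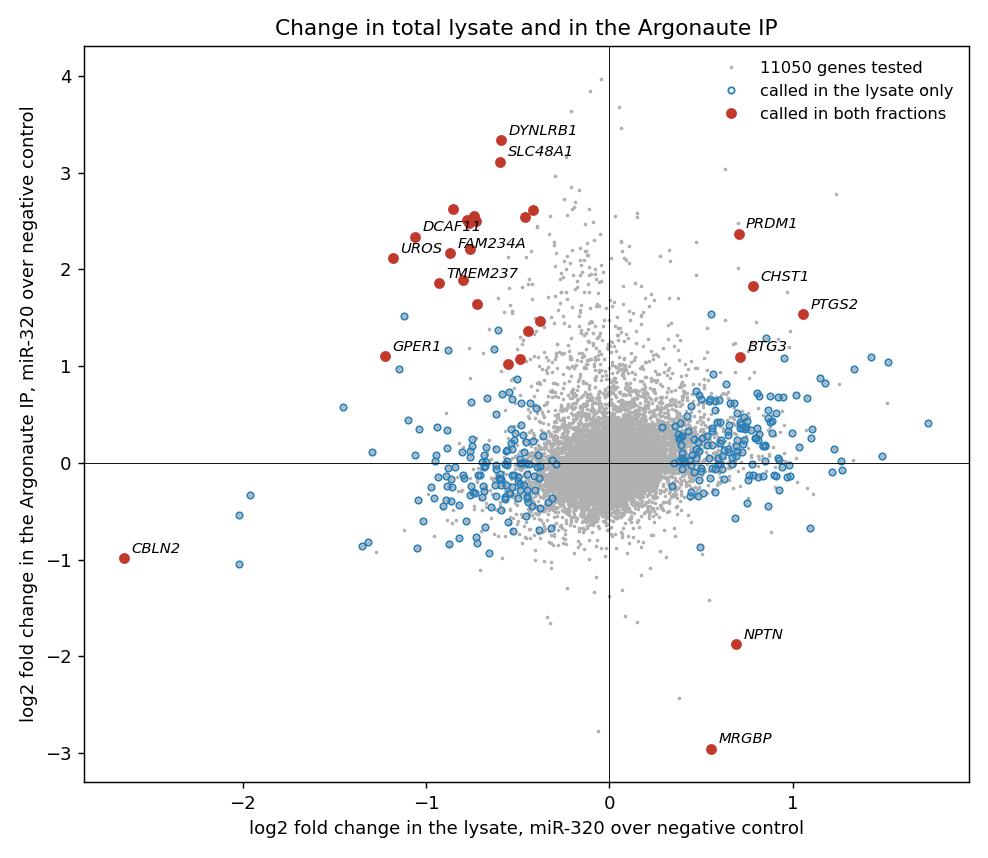
Log2 fold change of miR-320 over negative control in the lysate (horizontal axis) and in the Argonaute IP (vertical axis) for 11050 genes, with genes called in the lysate only as open circles and genes called in both fractions as filled red points. The 21 genes in the upper left quadrant were lower in the lysate by 0.38 to 1.23 and higher in the IP by 1.02 to 3.34.

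ITGA6, TMOD1 and ADAM12 had the largest rises among called genes whose groups did not overlap. TMOD1, which caps the pointed ends of actin filaments, had 11.70, 11.37 and 11.38 in miR-320 lysates, against 10.43, 9.52 and 9.96 in control lysates, 2.86-fold higher (adjusted p = 0.041). ITGA6, the integrin subunit that pairs with ITGB1 or ITGB4 to bind laminin, had 9.73, 9.92 and 9.60 in miR-320 lysates, against 8.0, 8.05 and 7.97 in control lysates, 3.34-fold higher (adjusted p = 0.025). Its 2 groups were tight and well apart, but its standard error, which rests on the spread within all 9 lysate groups, was 0.43, and the call ended whichever array was left out (adjusted p of up to 0.095). ADAM12, a membrane metalloprotease, had 8.34, 8.01 and 8.03 in miR-320 lysates, against 7.02, 6.22 and 6.67 in control lysates, 2.81-fold higher (adjusted p = 0.00045).

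RDH11, a retinol dehydrogenase, had 10.43, 10.63 and 10.52 in miR-320 lysates, against 9.26, 9.28 and 9.37 in control lysates, 2.34-fold higher with the smallest adjusted p of the named rises, 8.1e-06. UBE2V1, a ubiquitin-conjugating enzyme variant, had 12, 12.47 and 12.27 in miR-320 lysates, against 11.10, 11.11 and 11.25 in control lysates, 2.14-fold higher (adjusted p = 2.6e-05). UBASH3B, a phosphatase that restrains tyrosine kinase signalling, was 2.40-fold higher (adjusted p = 0.0003), and SNRPC, a protein of the U1 spliceosomal particle, was 2.41-fold higher (adjusted p = 0.0013).

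TMEM171 was 2.69-fold higher (adjusted p = 0.00084), FAIM2, an inhibitor of Fas-driven death, 2.15-fold (adjusted p = 0.00047), and ERLIN1, an endoplasmic reticulum lipid-raft protein, 2.26-fold (adjusted p = 0.0081). COMMD10 was 2.32-fold higher, PDP1, a phosphatase that activates pyruvate dehydrogenase, 2.22-fold, PLEKHS1 2.53-fold, the endosomal protein gene RBSN 2.14-fold and the cytokine gene LIF 2.11-fold. The adjusted p values of these 5 genes were 0.0075, 0.011, 0.02, 0.027 and 0.027. Their calls, and that of TMOD1, ended without control replicate 2 or another single array, with adjusted p of 0.064 for COMMD10, 0.077 for PDP1, 0.17 for PLEKHS1, 0.19 for LIF and 0.23 for TMOD1 without control replicate 2, and of 0.2 for RBSN without miR-320 replicate 1.

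Of 18 tested genes that earlier work has reported as miR-320 targets, 2 were lower in the miR-320 lysate, 1 was higher and 15 did not pass the test. The background was 1.5% of all genes lower and 1.46% higher, and the list's median was -0.21 against 0.004 for all genes. Without the 3 arrays that stood apart 5 were lower. Against the 7 other transfections the list's median was -0.01, with 9 of 18 below 0, and all genes had -0.01. Against miR-15b* the list's median was -0.04 and that of all genes -0.07. VDAC1, the main channel of the outer mitochondrial membrane, had 9.34, 9.08 and 9.07 in miR-320 lysates, against 9.89, 9.76 and 9.90 in control lysates, a change of -0.69 ± 0.11 (adjusted p = 0.00055). ITGB3, the beta subunit of the vitronectin receptor, had 8.09, 7.64 and 7.89 in miR-320 lysates, against 8.76, 8.36 and 8.58 in control lysates, a change of -0.69 ± 0.14 (adjusted p = 0.0081), and its call ended without miR-320 replicate 2 (0.061).

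CTNNB1, which encodes beta-catenin, had 11.65, 11.70 and 11.60 in miR-320 lysates, against 11.03, 10.85 and 10.87 in control lysates. It was thus higher by 0.74 ± 0.13 (adjusted p = 0.0013), the opposite direction to the other 2 called genes of the list. PBX3, a homeodomain cofactor, changed by -0.66 in the lysate without passing the test (adjusted p = 0.21, and 0.0033 with the replicate block) and was higher in the IP by 1.39 (adjusted p = 0.0046), the only gene of the list called there. VDAC1 and ITGB3 changed in the IP by 0.08 and 0.01 and CTNNB1 by 0.37, none of them called. The G protein gene GNAI1, the cell-cycle factor gene FOXM1 and ARPP19, a phosphatase inhibitor, changed by -0.80, -0.61 and -0.55 with adjusted p of 0.19, 0.3 and 0.48. For MCL1, NRP1, ETS2, IGF1R and RAC1 the changes lay between -0.23 and 0.13. In the IP the 18 genes had a median change of 0.13 with 2 below 0. All 11050 genes had a median of -0.001 there, with 5554 below 0. The IP change minus the lysate change had a median of 0.38 in the list, against -0.01 for all genes. By that difference 2 of the 18 were called higher, against 2.11% of all genes tested.

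Lists related to these targets were read as a whole. Of 39 Wnt and beta-catenin genes, 2 were higher, CTNNB1 and the receptor gene FZD5 (0.60, adjusted p = 0.043, and 0.18 without control replicate 2), and none lower, with a median of 0.11. With the replicate block 4 Wnt genes were higher and 1 lower, and without the 3 arrays that stood apart 4 were higher and 3 lower. Of 18 BCL2 family and VDAC genes, 2 were lower, VDAC1 and the pro-death gene BMF (-0.57, adjusted p = 0.046, lost whichever array was left out, up to 0.22), and none higher, with 1 higher without the 3 arrays that stood apart. Of 35 lysosomal genes, LAMP1, a major protein of the lysosomal membrane, was lower by 0.68 (adjusted p = 0.00025), and the sulphatase gene IDS was higher by 0.38 (adjusted p = 0.016, and 0.11 without miR-320 replicate 2), while the list's median was -0.20 and 3 lysosomal genes were lower with the replicate block and 2 without the 3 arrays that stood apart. LAMP1 had 10.40, 10.21 and 10.34 in miR-320 lysates, against 11.09, 10.98 and 10.92 in control lysates.

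Among DNA replication genes 7 of 36 tested were lower and none higher against the control (background 1.5% lower), all 36 had a change below 0, and the median was -0.45. With the replicate block 18 were lower, and 17 without the 3 arrays that stood apart. Without control replicate 2 there were 2 calls, without miR-320 replicate 1 there were 3 and without control replicate 3 there were 4. The mean log2 level of the list was 8.72, 9.17 and 9.11 in the miR-320 lysates, against 9.36, 9.65 and 9.47 in control lysates, so the 2 groups did not overlap.

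The 7 genes were 3 subunits of the replicative helicase, MCM2, MCM3 and MCM7, the helicase cofactors GINS2 and GINS3, the ubiquitin ligase adaptor DTL and the histone chaperone ASF1B. MCM3 had 8.87, 9.33 and 9.33 in miR-320 lysates, against 9.92, 10.39 and 9.95 in control lysates, a change of -0.91 ± 0.15 (adjusted p = 0.0012). MCM2 had 8.85, 8.89 and 8.81 in miR-320 lysates, against 9.82, 9.89 and 9.64 in control lysates, a change of -0.94 ± 0.19 (adjusted p = 0.0077, and 0.052 without control replicate 2). GINS3 was lower by 0.63 (adjusted p = 0.0041). The calls of MCM7 (-0.64, adjusted p = 0.0089), GINS2 (-1.05, 0.049), DTL (-0.89, 0.029) and ASF1B (-0.87, 0.028) ended without at least 1 array, with 0.069, 0.3 and 0.21 for MCM7, GINS2 and ASF1B without miR-320 replicate 1 and 0.18 for DTL without control replicate 2.

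Genes that govern entry into S phase moved the same way in part. Of 25 tested, 3 were lower and none higher, with a median of -0.13. CDK6, the kinase that phosphorylates the retinoblastoma protein, had 9.50, 9.62 and 9.29 in miR-320 lysates, against 10.12, 10.71 and 10.42 in control lysates, a change of -0.95 ± 0.16 (adjusted p = 0.00097). The transcription factor genes E2F1 and E2F2, activators of replication genes, were lower by 0.89 and 0.68 (adjusted p = 0.038 and 0.027). The call of E2F1 ended whichever array was left out, and that of E2F2 when any of 5 of the 6 was left out. Without control replicate 2 their adjusted p was 0.23 and 0.17. Of 34 replication-dependent histone genes, 33 had a change below 0 and the median was -0.33. H3C12 was called lower (-0.88, adjusted p = 0.043, and 0.19 without miR-320 replicate 3), a call that ended when any of 5 of the 6 arrays was left out. The authors' probe sets may not separate these near-identical genes. Without the 3 arrays that stood apart 8 histone genes were lower, with the 6 compared arrays alone 5, and with the replicate block 2.

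Mitosis genes showed no called change against the control. Of 28 tested, none was called in either direction and the median was -0.09, while 1 was lower with the replicate block and 3 without the 3 arrays that stood apart. Their mean level was 9.56, 9.99 and 10.04 in the miR-320 lysates, against 9.86, 10.11 and 10.11 in control lysates, and the 2 groups overlapped, with same-numbered arrays differing by -0.31, -0.11 and -0.07.

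Because E2F factors act at replication gene promoters, the promoters were searched for an E2F-like motif, TTTNNCGC, on both strands in the 250 bases before each start (RefSeq, GRCh38.p14). The motif was present in 37.5% of 32 tested replication genes with a promoter in the table, against 8.51% of 8777 tested genes and 5.93% of all 27305 genes. It lay before 12 of the 32, among them 4 of the 7 fallen replication genes. A match describes these letters only. The share belongs to the listed promoters whatever the cells received, so it says nothing of the fall. A role of E2F factors in the fall was not tested. The windows of MCM3 (chr6:52284883-52284942, minus strand), GINS2 (chr16:85688955-85689011, minus strand) and DTL (chr1:212035714-212035747, plus strand) are shown because these genes fell, in the direction of transcription and with each match of the motif or its reverse complement in capitals.
MCM3: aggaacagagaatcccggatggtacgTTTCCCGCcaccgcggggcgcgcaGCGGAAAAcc
GINS2: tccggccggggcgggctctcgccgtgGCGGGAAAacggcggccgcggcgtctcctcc
DTL: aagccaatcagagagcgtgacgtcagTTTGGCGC

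Among immediate early and AP-1 genes 8 of 28 tested were higher and none lower (background 1.46% higher), with a median of 0.33. Against the 7 other transfections 2 were higher and 5 lower (8 lower with the replicate block or without the 3 arrays that stood apart), with a median of -0.14 (-0.01 for all genes). Against miR-15b* none was called and the median was -0.04 (-0.07 for all genes). PHLDA1, a pleckstrin-homology protein induced by growth signals, had 11.95, 11.76 and 11.77 in miR-320 lysates, against 11.11, 10.90 and 11.05 in control lysates, 1.75-fold higher (adjusted p = 7.9e-05). JUN, a subunit of AP-1, had 10.29, 9.82 and 10.27 in miR-320 lysates, against 9.53, 8.65 and 9.09 in control lysates, 2.05-fold higher (adjusted p = 0.011). PTGS2, which encodes the inducible cyclooxygenase, had 11.20, 10.71 and 10.94 in miR-320 lysates, against 10.26, 9.60 and 9.81 in control lysates, 2.08-fold higher (adjusted p = 0.045).

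The other 5 were the AP-1 subunit FOSL2 (0.56), the stress gene IER3 (0.50), the ERK phosphatase DUSP5 (0.84), the chemokine CCL2 (0.55) and LIF (1.08), each value a log2 change. Of the 8 calls, PHLDA1 held with each array left out. Without control replicate 2 or miR-320 replicate 3 a single gene of the list was called, and 2 were called without miR-320 replicate 1 or control replicate 3. Without control replicate 2 the adjusted p was 0.1 for JUN, 0.14 for FOSL2, 0.093 for DUSP5, 0.19 for CCL2 and LIF and 0.23 for PTGS2, and for IER3 it was 0.18 without control replicate 3. The call of CCL2 ended whichever array was left out, and that of PTGS2 when any of 5 of the 6 was left out. The mean level of the list was 9.78, 9.23 and 9.58 in the miR-320 lysates, against 9.28, 8.94 and 8.97 in control lysates. The unpaired groups overlapped, and same-numbered arrays differed by 0.49, 0.29 and 0.61. The group means of the 7 other lysates, 9.36 to 9.76, lay above the 3 control arrays.

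Of 19 cadherin and synaptic organiser genes, 4 were lower (CDH10, CBLN2, LRRTM4 and FLRT3) and 1 was higher, NRXN3, a presynaptic neurexin (1.00, adjusted p = 0.025, and 0.12 without control replicate 2), with a median of -0.07. Of 13 integrin subunits, ITGA6 was higher and ITGB3 lower. Of 39 extracellular matrix genes, LOXL2, a lysyl oxidase that crosslinks collagen, was higher by 1.02 (adjusted p = 0.0018). The secreted phosphoprotein gene SPP1 of that list was lower by 0.76 (adjusted p = 0.049, lost whichever array was left out, up to 0.24). The semaphorin receptor gene NRP2 was higher by 0.91 (adjusted p = 0.00013), and so was FSTL1, a secreted follistatin-like protein, by 0.81 (adjusted p = 0.0023), among 22 semaphorin pathway and 35 TGF-beta pathway genes with no other call. With the replicate block 5 extracellular matrix genes were higher and 2 lower, and 2 TGF-beta pathway genes were higher. Without the 3 arrays that stood apart 3 integrin subunits, 2 cadherin or synaptic genes and 3 TGF-beta pathway genes were higher and 2 semaphorin pathway genes lower.

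Among 42 actin cytoskeleton genes, TMOD1 was higher and the formin gene DIAPH1 lower (-0.59, adjusted p = 0.0047). Of 21 glycolysis genes, the glucose transporter gene SLC2A3 and the hexokinase gene HK2 were higher, by 0.60 and 0.80 (adjusted p = 0.037 and 0.013, and 0.26 and 0.11 without miR-320 replicate 1). Of 31 genes of Argonaute and microRNA processing, AGO1 alone was called, lower by 0.45 (adjusted p = 0.0041). Of 23 metalloprotease genes only ADAM12 and of 13 complement genes only C3 was called. With the replicate block 2 actin genes were higher and 2 lower, 2 microRNA processing genes lower and 2 metalloprotease genes higher. Without the 3 arrays that stood apart 4 actin genes were higher and 2 lower, 4 microRNA processing genes lower and 1 higher, and 4 metalloprotease genes higher. No gene was called among 7 iron uptake genes, 49 ribosomal protein genes, 42 oxidative phosphorylation genes, 28 interferon response genes, 28 genes of the unfolded protein response, 22 sterol synthesis genes and 19 p53 targets, whose medians lay between -0.15 and 0.36. Without the 3 arrays that stood apart 4 p53 targets were higher, 2 with the 6 compared arrays alone and 1 with the replicate block, against none here. In the other lists 1 iron uptake and 1 oxidative phosphorylation gene were higher and 1 sterol synthesis and 1 unfolded protein response gene lower without those arrays, and 1 oxidative phosphorylation gene was higher with the block.

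**Figure D3:**
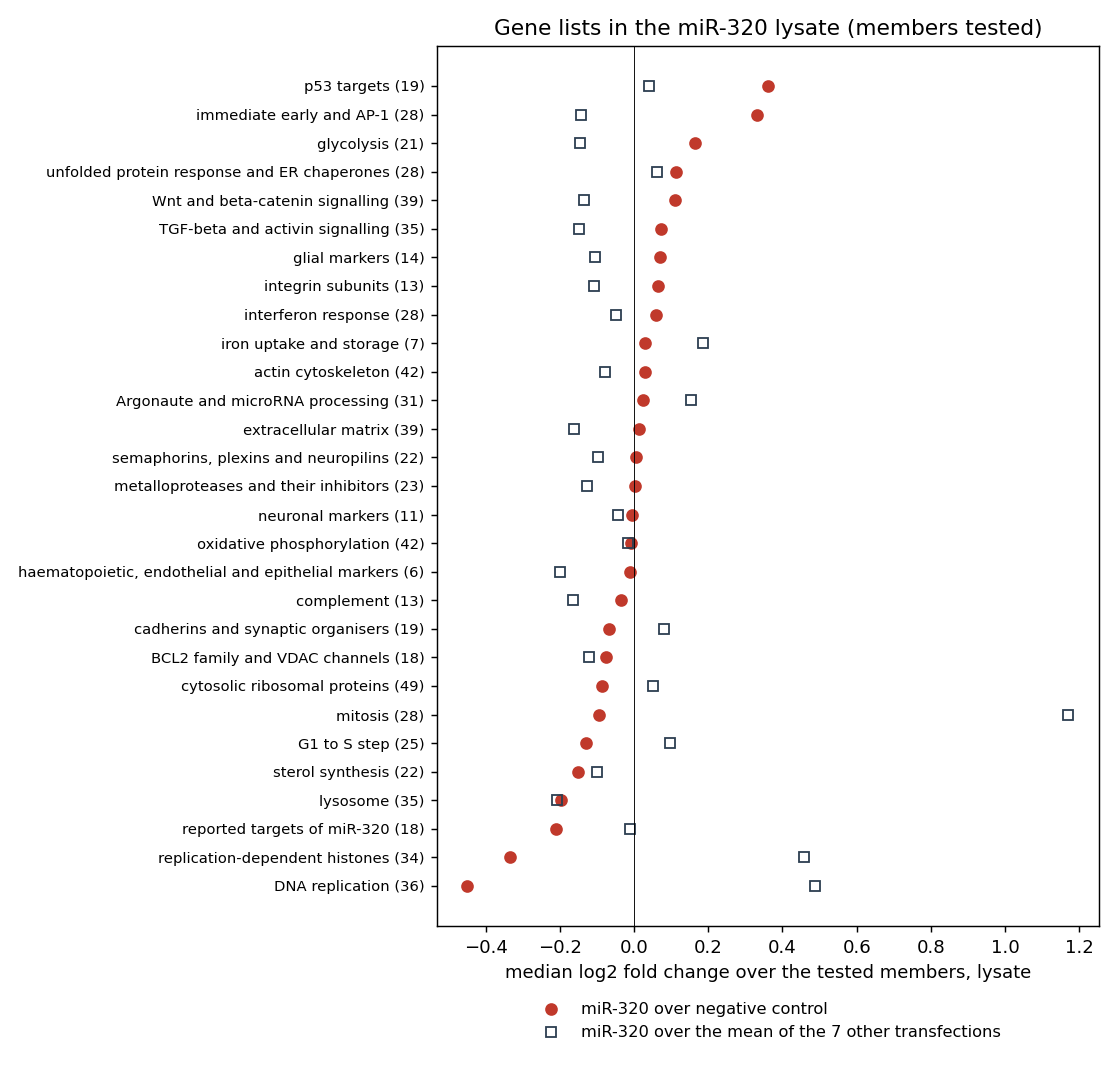
Median log2 fold change over the tested members (horizontal axis) of 29 gene lists in the miR-320 lysate, against the negative control (filled red circles) and against the mean of the 7 other transfections (open squares), with the number of members tested in brackets. DNA replication lies at -0.45 against the control and at 0.49 against the other transfections, and mitosis at -0.09 and 1.17.

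Setting the miR-320 lysate against the mean of the 7 other transfections asks which genes set it apart from cells that received any other molecule. This comparison uses the same 3 miR-320 arrays as the one with the control, and no control array. It gave 566 genes higher and 599 lower, 10.5% of those tested (5.12% and 5.42%), with 1941 in all with the replicate block, 2311 without the 3 arrays that stood apart and 570, 594 and 720 without miR-320 replicates 2, 3 and 1. The 3 miR-320 arrays lay outside the range of all 21 other arrays for 164 of the called genes, against 200 (1.81%) of all genes tested.

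Of the 166 genes lower than the control, 57 were also lower than the other transfections (34.3%, and 9.52% of the 599) and 16 were higher. Of the 161 genes higher than the control, 28 were also higher (17.4%, and 4.95% of the 566) and 20 were lower. With the replicate block the counts of falls were 117 lower and 51 higher, and of rises 70 higher and 51 lower, and without the 3 arrays that stood apart they were 179, 77, 111 and 59 in the same order. Since the miR-320 arrays are shared, the values are given side by side. UROS was lower by 1.25 ± 0.08 against the other transfections (adjusted p = 3.1e-09) beside 1.18 against the control, and its miR-320 values of 10.12 to 10.64 lay below all 21 other arrays, at 11.09 to 11.93. TSPAN31 was lower by 0.83 (adjusted p = 3.7e-07) with the other arrays at 10.57 to 11.34, above its miR-320 values of 10.12 to 10.27.

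VDAC1 was lower by 0.63 (adjusted p = 1.8e-05), and its miR-320 values of 9.07 to 9.34 lay below the other 21 arrays at 9.56 to 10.11. LAMP1 was lower by 0.59 (adjusted p = 1.3e-05), ITGB3 by 1.25 (adjusted p = 9.4e-08), BMF by 1.03 (adjusted p = 2.9e-06), NXT2 by 1.17 (adjusted p = 0.00038) and TMEM255A by 1.71 (adjusted p = 8e-08). ITGB3 had miR-320 values of 7.64 to 8.09, and the 21 other arrays lay at 8.33 to 9.60. Of the 21 genes lower in the lysate and higher in the IP, 13 were also lower than the other transfections, among them DYNLRB1, DCAF11, FAM234A, TRAPPC1, RBMS2 and ULK1.

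Other falls against the control had no counterpart here. CBLN2 differed from the other transfections by 0.08 (adjusted p = 0.79) and CDH10 by 0.55 (adjusted p = 0.16), while PCDH10, FLRT3 and CAPN6 were higher than in the other transfections, by 0.65, 0.64 and 1.05 (adjusted p = 0.00059, 0.004 and 3.6e-05). For CBLN2 the miR-320 values of 7.04 to 7.75 lay within the range of the 21 other arrays, 6.79 to 7.87, and the control lysates lay above all of them. The same held on the high side for CTNNB1, which differed by 0.02 (adjusted p = 0.9), with miR-320 values of 11.60 to 11.70 within the 11.17 to 11.83 of the others and the control at 10.85 to 11.03. ADAM12, ITGA6, UBASH3B, LIF and PDP1 differed from the other transfections by -0.18 to 0.06, none of them called, whereas RDH11 was higher by 0.42 (adjusted p = 0.0062), ERLIN1 by 0.76 (adjusted p = 0.0094) and TMOD1 by 1.04 (adjusted p = 0.029).

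**Figure D4:**
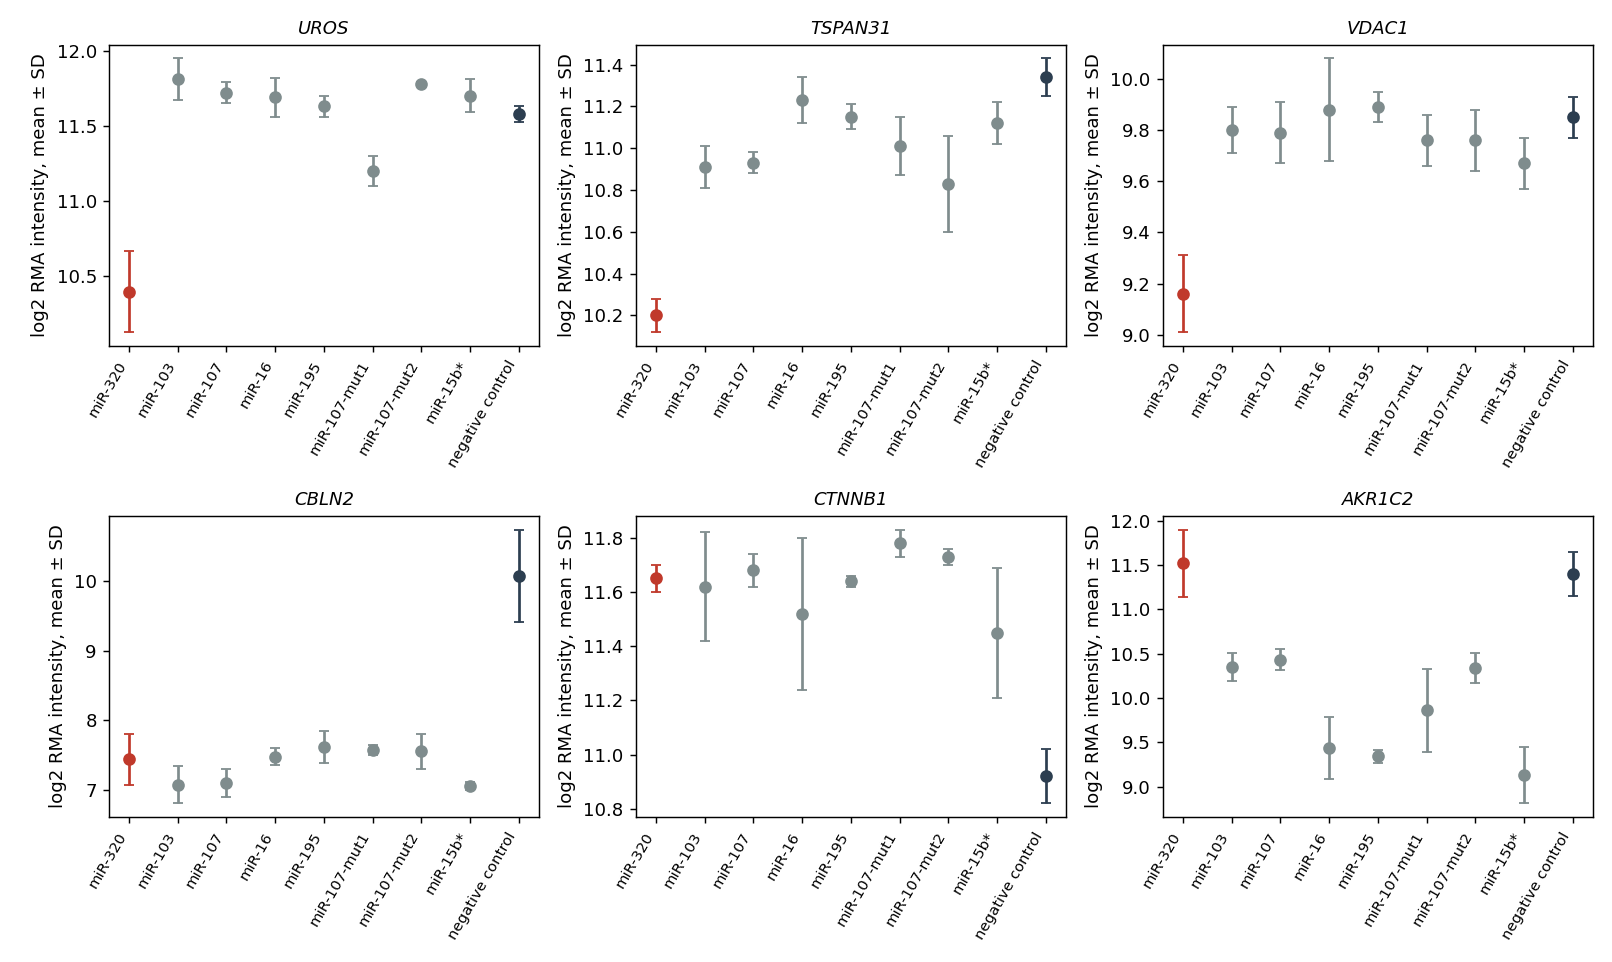
Mean log2 RMA intensity ± SD over 3 arrays (vertical axis) of 6 genes in the 9 lysate groups, with miR-320 in red at the left and the negative control in dark at the right. UROS, TSPAN31 and VDAC1 are lowest with miR-320, CBLN2 is high and CTNNB1 low in the negative control alone, and AKR1C2 is high with miR-320 and with the negative control.

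AOAH and AKR1C2 had the largest rises against the other transfections among called genes whose miR-320 arrays lay outside the range of the others. AKR1C2, an aldo-keto reductase of steroids, had 11.55, 11.89 and 11.13 in miR-320 lysates, and the 21 other arrays had a lowest value of 8.77, a median of 9.73 and a highest value of 10.56. It was higher by 1.68 ± 0.17 against them (adjusted p = 4.5e-07) and by 0.13 against the control (adjusted p = 0.99). AKR1C1 and AKR1C3 were higher by 1.25 and 1.31 (adjusted p = 1.6e-06 each), though the probes of these near-identical genes may share signal. The cytochrome gene CYP4F11 was higher by 1.29 (adjusted p = 1.2e-09), AOAH, which deacylates bacterial lipopolysaccharide, by 1.97 (adjusted p = 1.4e-08), and CIT, a kinase of cytokinesis, by 1.56 (adjusted p = 7.9e-07). GUCY1B1, ZSCAN31, PLSCR4 and the ephrin receptor gene EPHA5 were higher by 1.21, 1.19, 1.18 and 1.08. None of these 10 genes was called against the control.

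TGM2 and CHRNA1 had the largest falls against the other transfections among called genes whose miR-320 arrays lay outside the range of the others. TGM2, a transglutaminase, had 9.10, 8.86 and 9.18 in miR-320 lysates, and the other 21 arrays had a lowest value of 10.12, a median of 11.70 and a highest value of 12.96. It was lower by 2.49 ± 0.21 (adjusted p = 4.1e-08), beside a change of -0.50 against the control that did not pass (adjusted p = 0.55). PLAU, the urokinase, was lower by 1.58 (adjusted p = 1.7e-07), the metalloprotease gene ADAM19 by 1.38 (adjusted p = 1.6e-08), the matrix glycoprotein gene THBS1 by 1.31 (adjusted p = 1.7e-07) and the acetylcholine receptor subunit gene CHRNA1 by 1.92 (adjusted p = 4.1e-08). SGK1, a kinase induced by glucocorticoids and serum, and IFITM10 were lower by 1.22 each. Against the control PLAU, ADAM19, THBS1, CHRNA1, SGK1 and IFITM10 changed by 0.24, -0.10, 0.49, 0.17, -0.35 and -0.55, none called, although THBS1 and IFITM10 had adjusted p of 0.026 and 0.048 with the replicate block.

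Cell cycle lists stood on the other side here. Of 28 mitosis genes 26 were higher than in the other transfections and none lower, with a median of 1.17 (background 5.12% higher), and 22 of 36 DNA replication genes were higher, with a median of 0.49. Without miR-320 replicate 3 these counts were 19 and 11, and without miR-320 replicate 2 the replication count was 12. Of 39 Wnt and of 35 TGF-beta pathway genes, 10 and 11 were lower than in the other transfections (background 5.42% lower) and 1 of each list was higher, against 4 Wnt genes without the 3 arrays that stood apart and 4 TGF-beta genes with the replicate block. Without miR-320 replicate 2 the lower counts were 5 and 4, without replicate 3 they were 6 and 5, and without replicate 1 the TGF-beta count was 6. The mean level of the mitosis list was 8.27 in the miR-103, 8.29 in the miR-107, 8.15 in the miR-16, 8.21 in the miR-195 and 8.51 in the miR-107-mut2 lysates, but 10.06 in the miR-107-mut1 and 9.63 in the miR-15b* lysates. For replication genes the miR-320 array means of 8.72 to 9.17 lay within the 7.86 to 9.60 of the 21 other arrays. They overlapped the miR-15b* arrays, at 8.69, 9.08 and 8.92, with none of 36 genes called against miR-15b* and a median of 0.05 (-0.07 for all genes).

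**Figure D5:**
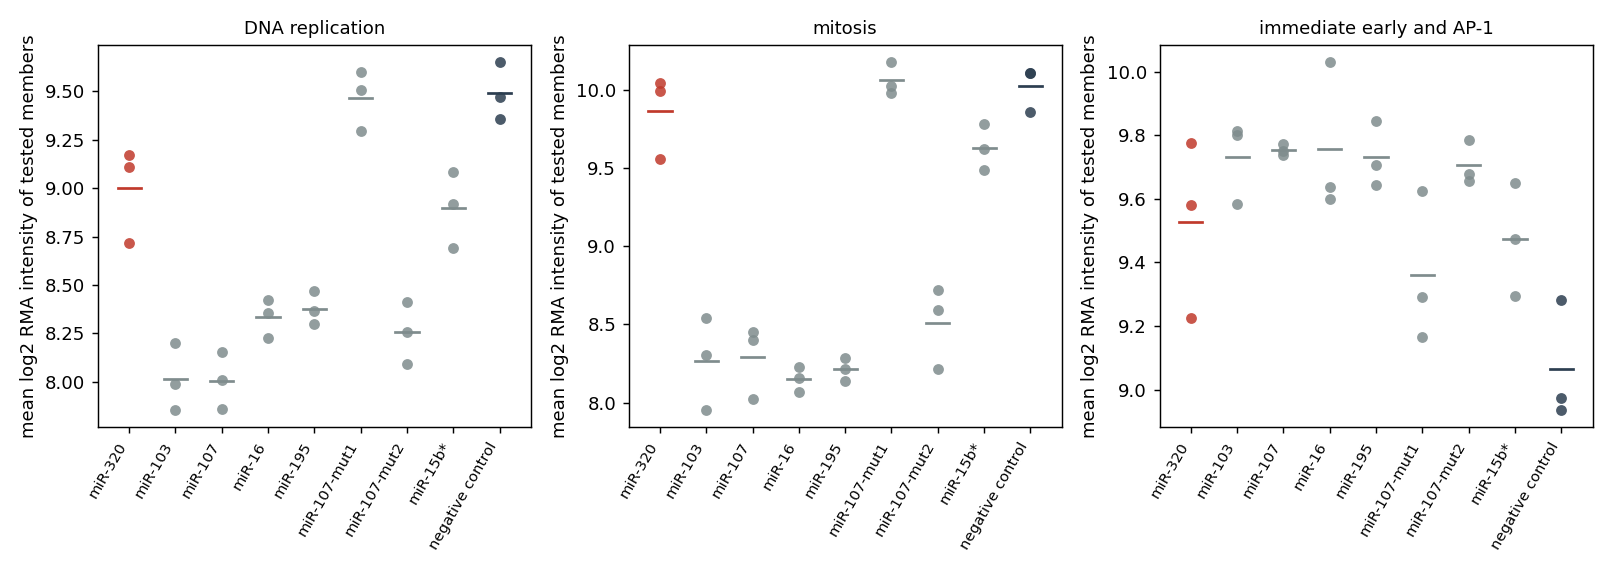
Mean log2 RMA intensity of the tested members of 3 gene lists (vertical axes) in each of the 27 lysate arrays, by transfection, with miR-320 in red at the left and the negative control in dark at the right; bars are group means. For DNA replication the miR-320 arrays lie at 8.72 to 9.17, below the control arrays at 9.36 to 9.65 and above the miR-103 and miR-107 arrays.

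The miR-320 lysate was last set against the miR-15b* lysate, since the labels describe both as control molecules. It gave 259 genes higher and 200 lower, 4.15% of those tested (2.34% and 1.81%). This count rests on the spread over all 9 lysate groups and on an array that stood apart, with 204 calls without miR-15b* replicate 2, 754 without miR-15b* replicate 1 and 235, 283 and 291 without miR-320 replicates 2, 1 and 3, and 5 when only the 6 arrays compared were fitted. AKR1C2, AKR1C1 and AKR1C3 were higher by 2.39, 2.10 and 2.14 (adjusted p = 6.1e-07, 4.6e-07 and 4.6e-07), with AKR1C2 at 11.13 to 11.89 in miR-320 lysates and at 9.13 ± 0.32 in miR-15b* lysates (SD, n = 3). TDO2, a tryptophan dioxygenase, and CMPK1, a pyrimidine nucleotide kinase, were higher by 2.66 and 1.97 (adjusted p = 0.0053 and 0.00024). UROS was lower by 1.30 (adjusted p = 4.6e-07), TMEM255A by 1.34 (adjusted p = 0.00022), TGM2 by 1.37 (adjusted p = 0.0043), PLAU by 1.23 (adjusted p = 0.00041) and the nuclear receptor gene NR4A2 by 1.38 (adjusted p = 0.0034). TSPAN31, VDAC1 and LAMP1 were also lower, by 0.92, 0.51 and 0.54 (adjusted p = 1.4e-05, 0.0072 and 0.0018). Of the 21 genes lower in the lysate and higher in the IP, 13 were lower than with miR-15b*.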

How the data were processed

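RNA from H4 cells, taken 48 h after transfection as total lysate or anti-Argonaute IP, was read on 54 Affymetrix Human Gene 1.0 ST arrays. Per the submitters' processing notes, the authors used RMA and the software Affymetrix Expression Console 1.1, and they deposited log2 intensities. RMA gives arrays processed together a shared intensity distribution, but the lysate and IP arrays did not share one. Mean log2 values were 7.11 to 7.17 in the lysate arrays and 3.61 to 3.65 in the IP arrays. Scanner values were not used here. A single symbol was paired with 19460 of the 33297 probe sets, more than 1 with 1754 and no symbol with 12083. The 18417 genes took the probe set with the highest mean. The lowest 40% by mean over all 54 arrays of both fractions (below 5.26) were left out, giving 11050. limma 3.58.1 (R 4.3.3) fitted the 27 lysate arrays in 9 groups, the 27 IP arrays likewise, and all 54 for the difference between fractions, each with Benjamini-Hochberg adjustment over all genes. The fit was tested on simulated arrays with independent noise. These held no shared deviation of same-numbered arrays and no arrays that stood apart, so the test does not cover those features of the data. The number of arrays limits the precision. The p-values rest on the spread between labelled biological replicates, 3 per group, taken over all groups in the fit and not over the compared groups alone. Log2 values have no true zero, so folds are ratios of normalised intensity.

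Same-numbered arrays of miR-320 and control deviated together (r = 0.6437, 0.6355 and 0.3309 in the lysate, and 0.2118, 0.2313 and 0.5148 in the IP) and share a code in the labels, so values with the replicate number as a block stand beside results they change by more than 1.5 times. Genes were named as the 15 largest rises and falls against the control, the 10 each way against the 7 other transfections and the 5 each way against miR-15b*, among called genes whose arrays do not overlap, plus called members of 29 lists and genes called in both fractions. The comparison, members and lists were chosen with earlier results of these data known. Alternatives were other filters, cyclic loess, a trended robust fit, array weights, the compared arrays alone, the block and single arrays left out.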

Additional observations from a re-analysis of the deposited data

Results flagged for a closer look

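The changes between miR-320 and negative control differed between the Argonaute IP and the lysate, by the test of that difference in 1 limma fit over all 54 arrays (adjusted p under 0.05), for 252 of 11050 genes, and for the 35 genes named here that were also called in the lysate. Each value is the log2 change in the IP minus that in the lysate. For the 21 genes lower in the lysate and higher in the IP a positive difference follows from how they were chosen. Their values were 3.30 for UROS, 3.93 for DYNLRB1, 3.71 for SLC48A1, 3.48 for LINC03129, 3.40 for DCAF11, 3.29 for AGFG1, 3.28 for CEP85, 3.24 for RBMS2, 3.23 for CTDSP1, 3.04 for FAM234A, 3.03 for PPIL1, 3.00 for RTL8B, 2.97 for TRAPPC1, 2.79 for TMEM237, 2.69 for LINC00999, 2.36 for CBX6, 2.33 for GPER1, 1.85 for CTPS1, 1.81 for CHRAC1, 1.58 for ULK1 and 1.56 for TET3.

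Of the genes lower in the lysate without a called rise in the IP, the difference was 2.64 for TRIM14, 2.11 for TSPAN31, 2.03 for NXT2, 1.66 for CBLN2, 1.48 for CDH10, 1.41 for CAPN6, 1.29 for DIAPH1 and 0.77 for VDAC1. PRDM1, higher in both fractions, had 1.66. Of the genes higher in the lysate, ADAM12 had -1.42, SNRPC -1.34, UBASH3B -1.24 and NRP2 -1.05, and NPTN had -2.57. The difference removes a constant offset between the fractions, not a difference in their scale. Groups of 3 arrays were not screened for single outlying arrays.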

How the results depend on the processing

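The number of genes called depended strongly on the estimate of the spread. Single genes were checked for 82 calls against the control, 20 against the other transfections, 10 against miR-15b* and 10 in the IP. No gene checked changed direction, but most settings could not change it. Other filters, the trended robust fit, the block and the compared arrays alone keep the log2 change as it was. Leaving out an array cannot reverse the change of a gene whose groups do not overlap. Against the control the count of 327 became 2367 with array quality weights, whose estimation stopped before it converged, 671 with the replicate block, 996 without the 3 lysate arrays that stood apart and 2171 without them and with the block, and it ran from 139 to 256 with 1 array left out. Against the other transfections 1165 became 3565 with array weights, 1941 with the block and 2311 without the arrays that stood apart, and ran from 570 to 1393 with 1 array left out. Against miR-15b* 459 became 5 when only the 6 arrays were fitted, 3033 with array weights and 1029 with the block, and ran from 204 to 754; same-numbered arrays of these 2 groups did not deviate together (r = 0.2797, -0.2218 and -0.1524). In the IP 244 became 386 after cyclic loess, 466 with array weights and 373 with the block, and ran from 148 to 228; the difference between fractions went to 385 and 693 with loess and array weights, and ran from 114 to 173. The causes were not tested. Exclusions of the arrays that stood apart were chosen after the data were seen. Of 86 called genes that are named or listed, 43 kept their call with each array left out. Testing all genes ended 12 of 82 named calls against the control, cyclic loess 2, the trended robust fit 3 and the 6 arrays alone 8; against miR-15b* the 6 arrays alone ended 7 of 10, and in the IP testing all genes and the 6 arrays alone ended 1 of 10 each. Leaving out an array also reduces the residual degrees of freedom. Other filters and the trended robust fit kept these counts within 1.5 times.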
